A study of Mus musculus with 2 samples.

Results

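A set of 10 genes of extracellular proteolysis, 8 proteases and 2 of their inhibitors, was followed by cell type in mouse carotid arteries 4 weeks and 2 weeks after wire injury. All 10 were found by symbol among the 27998 genes of the deposited tables, and all 10 are described. The 4-week library (28 days) and the 2-week library (14 days) each come from male C57BL/6J mice, 8 weeks old, and the design gives 18 mice at each time. A guide wire passed through the artery strips its endothelium, and the wall then thickens from the inside (intimal hyperplasia). Each time is 1 droplet single-cell library of live, nucleated cells freed with the protease papain, and no label ties a cell to its mouse. Differences between the times therefore have no replicate check and no test. The labels call the tissue carotid artery and the design whole vessel, while the protocol for freeing cells mentions grafts of the aorta and parts the adventitia, the outer coat, from the media and neointima. Ranges in parentheses beside a value are 95% intervals for counting error alone.

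Matrix metalloproteases (MMPs) are zinc enzymes that cut collagens, gelatin and other matrix proteins, and most are secreted as inactive precursors. ADAMTS proteases cut proteoglycans such as versican and aggrecan. Tissue inhibitors of metalloproteases (TIMPs) bind the active enzymes, and TIMP3, which stays bound to the matrix, also inhibits several ADAMTS enzymes. In arteries, matrix breakdown by these enzymes accompanies cell migration and wall remodelling.

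After filtering, 7460 cells at 4 weeks and 5172 cells at 2 weeks remained, with medians of 8728 and 11799 UMIs (unique molecular identifiers, counted transcripts) a cell. They fell into 31 clusters, of which 26 were named after 15 cell classes by their markers and 5 kept a number. The clustering left out the listed protease and inhibitor genes, so the classes do not rest on them. Fibroblast-like cells were 37.9% of cells at 4 weeks and 19.1% at 2 weeks, and macrophage-like cells were 4.10% and 22.3%. All 7 fibroblast, 7 smooth muscle and 8 macrophage markers were at least 2-fold above the rest of the cells in both libraries. Thymocyte-like cells were 10.0% of cells at 4 weeks and 30.2% at 2 weeks, the largest class at 2 weeks. Parathyroid cell-like cells were 0.201% and 1.04%, and airway epithelial cell-like cells numbered 1 and 27. Which cells came from the artery wall was not tested, and the mix of tissues may differ between the libraries. The libraries share 8 cell barcodes, 6 of them among kept cells.

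Levels are UMIs of a gene per 1000000 UMIs of the class, written CPM. Thymocyte-like cells serve as the measure of free RNA, since lymphoid precursors are not a known source of these genes. After every cell was thinned to 2700 UMIs, 20.4% of thymocyte-like cells at 4 weeks and 16.7% at 2 weeks still held a Timp2 UMI, and 3.87% and 3.48% held an Mmp2 UMI. Their median depth was 3259.5 UMIs at 4 weeks and 5404 at 2 weeks, against 12972 and 22664.5 in fibroblast-like cells.

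Fibroblast-like cells were the largest source of 8 of the 10 genes at 4 weeks and of 8 at 2 weeks, all but Mmp9 and Mmp13. They held 51.7% of all UMIs at 4 weeks and 33.1% at 2 weeks, and they were the largest source of 81.4% of all genes with at least 20 UMIs at 4 weeks, and of 42.6% at 2 weeks. They gave 93.0% of the summed protease UMIs and 89.5% of the inhibitor UMIs at 4 weeks, against 80.6% and 71.6% at 2 weeks. The share held by one class moves with the number of its cells captured. The number of cells and the RNA per cell cannot be told apart in these shares.

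**Figure D1:**
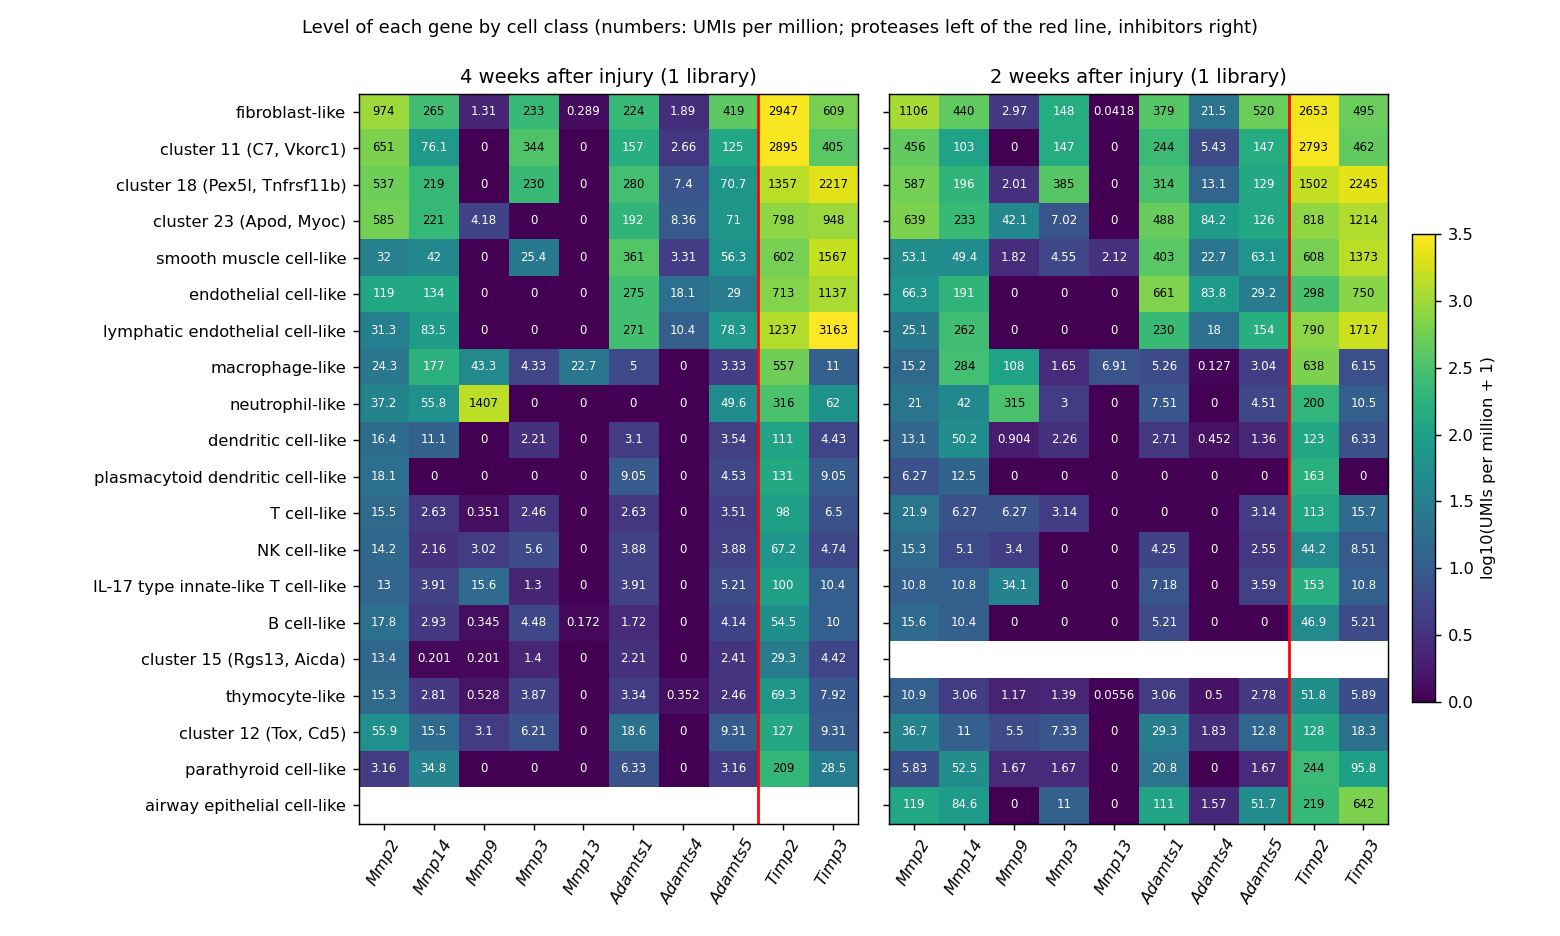
Level of each gene (columns) in each cell class or numbered cluster (rows), in CPM, at 4 weeks (left) and 2 weeks (right); colour is log10 of the level plus 1, and classes under 10 cells are blank. Timp2 is bright in the fibroblast-like row, with 2947 at 4 weeks and 2653 at 2 weeks, while Mmp9 stands out in neutrophil-like cells, 1407 and 315.

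**Figure D2:**
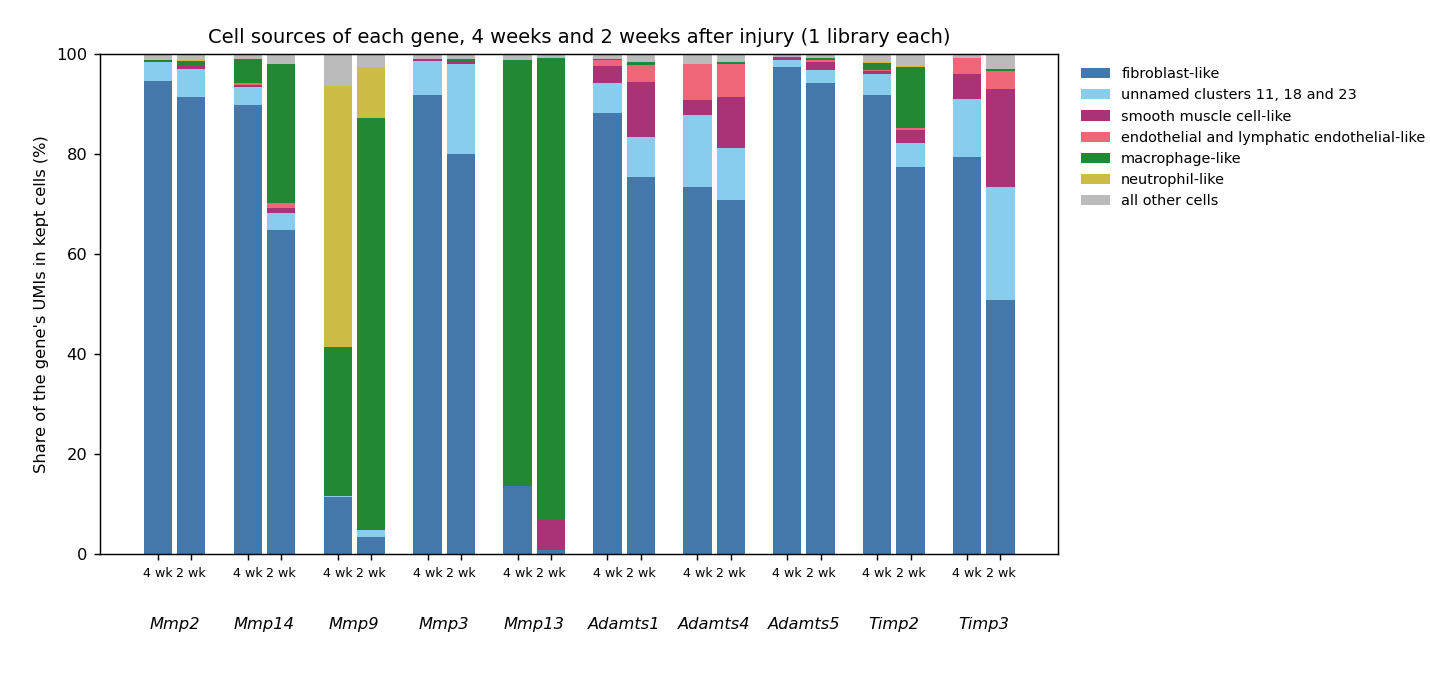
Share of each gene's UMIs (percent of kept cells' UMIs, vertical axis) by cell class, with 4 weeks left of 2 weeks for each gene. Fibroblast-like cells hold most of every bar except those of Mmp9 and Mmp13. Neutrophil-like and macrophage-like cells hold most of Mmp9, and macrophage-like cells most of Mmp13.

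The gelatinase Mmp2 (chromosome 8, 92827291 to 92853420, mm10, plus strand) came mostly from fibroblast-like cells at both times. Its level in fibroblast-like cells was 974 CPM (964 to 984) at 4 weeks and 1106 (1092 to 1119) at 2 weeks, a log2 ratio of -0.18 (-0.21 to -0.16). These cells held 94.6% and 91.5% of Mmp2 UMIs, and the sign of the ratio differed among their clusters, as given below. The numbered clusters 11, 18 and 23, which also met most fibroblast markers, followed at 537 to 651 CPM at 4 weeks and 456 to 639 at 2 weeks. Endothelial cell-like cells had 119 and 66.3 CPM, and airway epithelial cell-like cells, 27 at 2 weeks, had 119 at that time. In smooth muscle-like cells, Mmp2 had 32.0 and 53.1 CPM, and macrophage-like cells had 24.3 and 15.2, close to the thymocyte-like level of 15.3 and 10.9.

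Mmp14 (chromosome 14, 54431612 to 54445364, plus strand), a membrane-anchored MMP that activates the MMP2 precursor, had, in fibroblast-like cells, 265 CPM (259 to 270) at 4 weeks and 440 (431 to 448) at 2 weeks. Macrophage-like cells had 177 (162 to 193) and 284 (276 to 293). The log2 ratios were -0.73 (-0.77 to -0.69) and -0.68 (-0.81 to -0.55), short of 2-fold in both classes. In a separate clustering of each library, the macrophage-like ratio was -1.73. Macrophage-like cells held 4.74% of Mmp14 UMIs at 4 weeks and 27.6% at 2 weeks. Dendritic cell-like cells had 11.1 CPM at 4 weeks and 50.2 at 2 weeks (25 and 111 UMIs), a log2 ratio of -2.18 (-2.87 to -1.55), the 1 of 4 measured genes lower by 2-fold there, where 5.6% of genes were, and 0 of 4 were higher, where 3.73% were. Of this class, cluster 19 was 61.9% at 4 weeks and 82.1% at 2 weeks and cluster 22 the rest. Mmp14 had 10.1 and 51.1 CPM in cluster 19 and 13.2 and 45.0 in cluster 22.

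Mmp9 (chromosome 2, 164940780 to 164955850, plus strand), the gelatinase stored in neutrophil granules, came mostly from neutrophil-like and macrophage-like cells. Neutrophil-like cells had 1407 CPM (1230 to 1603) at 4 weeks and 315 (274 to 361) at 2 weeks, from 30 and 207 cells. The 5 cells with the most held 60.4% of the 227 Mmp9 UMIs at 4 weeks and 19.0% of 210 at 2 weeks. The top cell held 14.5% and 6.19%. An Mmp9 UMI was seen in 73.3% of neutrophil-like cells at 4 weeks and 35.7% at 2 weeks, and after thinning in 72.0% (50.6 to 87.9) and 35.4% (27.7 to 43.7). Under 50 neutrophil-like cells were present at 4 weeks, so no ratio is given. Macrophage-like cells had 43.3 (36.2 to 51.5) and 108 (103 to 113) CPM, a log2 ratio of -1.31 (-1.58 to -1.05), which was -0.41 when each library was clustered on its own. The neutrophil-like class gave 52.1% of Mmp9 UMIs at 4 weeks and 10.2% at 2 weeks, and the macrophage-like class gave 29.8% and 82.2%. Lower levels were seen in IL-17 type innate-like T cell-like cells, 15.6 and 34.1 CPM (12 and 19 UMIs), and in cluster 23, 4.18 and 42.1 CPM (1 and 24 UMIs).

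Mmp3 (chromosome 9, 7445822 to 7455975, plus strand), a stromelysin that cuts many matrix proteins and activates other MMPs, had, in fibroblast-like cells, 233 CPM (228 to 238) at 4 weeks and 148 (143 to 152) at 2 weeks, a log2 ratio of 0.66 (0.60 to 0.72). It was unevenly spread among these cells. A UMI was seen in 28.0% of the class at 4 weeks and 30.1% at 2 weeks, and the 10% of cells with the most held 85.9% and 82.9% of the UMIs. After thinning, 17.1% and 14.6% of cells had a UMI. Cluster 18 (led by Pex5l, Tnfrsf11b, Ltbp2, Fmod and Dio2) had 230 CPM at 4 weeks and 385 at 2 weeks, and cluster 11 (led by C7, Vkorc1, Inmt, Clec3b and Il17d) had 344 and 147.

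Mmp13 (chromosome 9, 7272514 to 7283331, plus strand), a collagenase that cuts fibrillar collagen, was rare, with 80 UMIs at 4 weeks and 118 at 2 weeks in all kept cells. Macrophage-like cells held 85.0% and 92.4% of them. Their level was 22.7 CPM (17.6 to 28.7) at 4 weeks and 6.91 (5.68 to 8.34) at 2 weeks, a log2 ratio of 1.71 (1.25 to 2.16). Only 13 and 18 macrophage-like cells had a UMI, and the 5 cells with the most held 77.9% and 74.3%. When each library was clustered on its own, the class had no Mmp13 UMI at 4 weeks and the ratio was -1.96 or lower, from a floor of 3 counts in that library. The 13 cells with an Mmp13 UMI at 4 weeks were then outside the class. Macrophage-like ratios from separate clustering, also those of Mmp14 and Mmp9, thus compare another set of cells.

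Mmp3 and Mmp13 lie 162 kb apart in 1 run of MMP genes, and they had different main sources. The 250 bases before each RefSeq start (GRCm38.p6, plus strand) are printed for the pair, and for Adamts1, a gene of both fibroblast-like and smooth muscle-like cells, as a contrast (minus strand). RefSeq promoters were at hand for 6 of the 10 genes. Capitals mark TGANTCA, the AP-1 motif bound by Fos and Jun proteins, and TATAAA, both searched on both strands.
Mmp3 chr9:7445572-7445821: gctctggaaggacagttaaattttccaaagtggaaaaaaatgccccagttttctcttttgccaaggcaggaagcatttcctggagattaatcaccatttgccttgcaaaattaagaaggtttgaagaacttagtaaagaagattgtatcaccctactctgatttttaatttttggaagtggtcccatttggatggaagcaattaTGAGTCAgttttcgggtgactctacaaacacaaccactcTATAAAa
Mmp13 chr9:7272264-7272513: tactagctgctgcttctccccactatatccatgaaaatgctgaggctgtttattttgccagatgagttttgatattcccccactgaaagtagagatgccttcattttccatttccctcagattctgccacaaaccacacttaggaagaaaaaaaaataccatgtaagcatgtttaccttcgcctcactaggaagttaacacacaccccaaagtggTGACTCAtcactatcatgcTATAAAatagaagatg
Adamts1 chr16:85803114-85803363: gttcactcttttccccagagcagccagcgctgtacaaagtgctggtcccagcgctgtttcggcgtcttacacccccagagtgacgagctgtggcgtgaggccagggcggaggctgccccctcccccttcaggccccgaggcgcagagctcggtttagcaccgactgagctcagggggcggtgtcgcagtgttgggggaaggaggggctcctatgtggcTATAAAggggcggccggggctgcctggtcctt
The AP-1 match begins 46 bases before the start in Mmp3 and 35 in Mmp13, and neither overlaps the TATAAA match. TATAAA begins 7 bases before the start in Mmp3, 16 in Mmp13 and 32 in Adamts1. These distances are from RefSeq starts, and where transcription begins in these cells was not measured. Of 32851 promoters of this length, 6.75% hold the AP-1 motif, 12.4% hold TATAAA and 1.21% hold both. The Mmp14, Adamts1, Timp2 and Timp3 windows hold no AP-1 match.

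Adamts1 (chromosome 16, 85793827 to 85803113, minus strand), which cuts versican and aggrecan, had, in fibroblast-like cells, 224 CPM (219 to 229) at 4 weeks and 379 (372 to 387) at 2 weeks, a log2 ratio of -0.76 (-0.80 to -0.72). In smooth muscle-like cells it had 361 (323 to 402) and 403 (382 to 425), a log2 ratio of -0.16 whose interval, -0.34 to 0.02, holds 0. Endothelial cell-like cells, 27 at 4 weeks and 42 at 2 weeks, had 275 (217 to 344) and 661 (592 to 735). At 4 weeks smooth muscle-like cells ranked highest, and at 2 weeks endothelial cell-like cells did.

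Adamts4 (chromosome 1, 171250421 to 171260637, plus strand), an aggrecanase, differed most between the times among the 9 genes measured in fibroblast-like cells. Their level was 1.89 CPM (1.48 to 2.38) at 4 weeks and 21.5 (19.7 to 23.4) at 2 weeks, from 72 and 514 UMIs, a log2 ratio of -3.50 (-3.88 to -3.15). A UMI was seen in 1.98% of the class at 4 weeks and 20.4% at 2 weeks. After thinning, 0.679% of cells at 4 weeks and 3.58% at 2 weeks had a UMI, against 0.204% of the thinned thymocyte-like class at 4 weeks. At 2 weeks 0 of its 1351 cells had one, an upper limit of 0.273%. Adamts4 was also lower at 4 weeks in smooth muscle-like cells, 3.31 against 22.7 CPM (3 and 75 UMIs), and in endothelial cell-like cells, 18.1 against 83.8 (5 and 43 UMIs).

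Adamts5 (chromosome 16, 85856173 to 85901828, minus strand), the other main aggrecanase and 53.1 kb from Adamts1, came almost wholly from fibroblast-like cells, which held 97.4% of its UMIs at 4 weeks and 94.1% at 2 weeks. Their level was 419 CPM (413 to 426) and 520 (510 to 529), a log2 ratio of -0.31 (-0.34 to -0.28). Smooth muscle-like cells had 56.3 and 63.1.

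Timp2 (chromosome 11, 118301069 to 118355740, minus strand), which inhibits MMPs and also helps MMP14 activate the MMP2 precursor, was found in nearly every fibroblast-like cell. Its level there was 2947 CPM (2929 to 2964) at 4 weeks and 2653 (2633 to 2674) at 2 weeks, a log2 ratio of 0.15 (0.14 to 0.17). After thinning, 99.0% and 98.0% of them held a UMI. Macrophage-like cells had 557 (530 to 584) and 638 (626 to 651), 8.03 and 12.3 times the thymocyte-like level, and smooth muscle-like cells had 602 and 608. Macrophage-like cells held 1.37% of Timp2 UMIs at 4 weeks and 12.3% at 2 weeks.

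Timp3 (chromosome 10, 86300372 to 86349506, plus strand) was highest outside the fibroblast-like class. Lymphatic endothelial cell-like cells had 3163 CPM (2916 to 3425) at 4 weeks and 1717 (1566 to 1878) at 2 weeks, from 26 and 24 cells. Cluster 18 had 2217 and 2245, and smooth muscle-like cells had 1567 (1487 to 1651) and 1373 (1333 to 1414). Fibroblast-like cells had 609 (602 to 617) and 495 (486 to 504), a log2 ratio of 0.30 (0.27 to 0.33). That ratio was 0.07 with the listed genes kept for clustering, 0.05 with no doublet removal and 0.03 with clusters 11, 18 and 23 joined to the class. Fibroblast-like cells gave 79.5% of Timp3 UMIs at 4 weeks and 50.9% at 2 weeks, while smooth muscle-like cells gave 4.87% and 19.5%.

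Across the 9 genes with at least 20 UMIs in fibroblast-like cells, 2 (Adamts4 and Mmp9) were lower at 4 weeks by 2-fold or more, where 5.36% of 13791 genes were, and 0 were higher, where 2.31% of genes were. Mmp13 had too few UMIs. The median log2 ratio of the 9 was -0.31, against 0.01 for all genes. Mmp9 reached 1.31 and 2.97 CPM there, and 1 cell held 54.0% of its 50 UMIs at 4 weeks. Its ratio of -1.17 was -0.81 with each library clustered on its own, -0.97 with no doublet removal, and -2.15 without the cell with the most Mmp9 UMIs in each library. In macrophage-like cells 1 of 9 genes (Mmp9) was lower by 2-fold, where 3.88% of genes were, and 2 (Mmp3 and Mmp13) were higher, where 3.74% were. Mmp3 there was at the free-RNA level, 4.33 and 1.65 CPM against 3.87 and 1.39 in thymocyte-like cells. In smooth muscle-like cells Adamts4 was the 1 of 8 genes lower by 2-fold, where 3.79% of genes were, and Mmp3 the 1 higher, where 2.81% were. A single cell held 78.3% of the 23 Mmp3 UMIs of smooth muscle-like cells at 4 weeks.

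**Figure D3:**
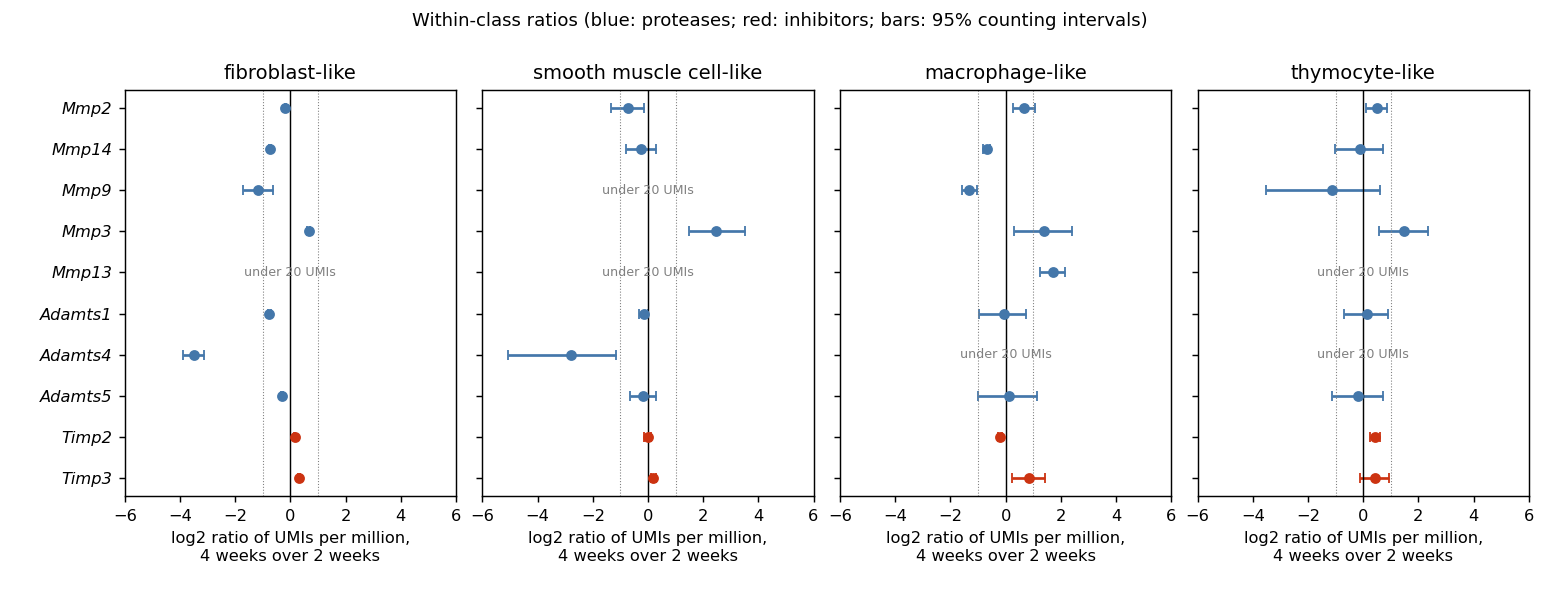
Log2 ratio (horizontal axis) of the 4-week level to the 2-week level, both in CPM, for each gene in 4 classes, with 95% counting intervals; dotted lines mark 2-fold. In fibroblast-like cells Adamts4 lies at -3.50 and the inhibitors lie right of 0, and in macrophage-like cells Mmp9 and Mmp13 lie on opposite sides.

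The fibroblast-like class was made of different clusters at the 2 times. Cluster 0 (led by Dact2, Pla1a, Sbsn, Smpd3 and Pi16) was 44.1% of it at 4 weeks and 18.1% at 2 weeks. Cluster 6 (led by Ptx3, Col5a3, Tnfaip6, Cthrc1 and Has1) was 5.90% and 52.5%. Clusters 3 (Inmt, Penk, C7, Gdf10 and Mmp3) and 5 (C1qtnf3, Cilp, Thbs4, Angptl1 and Hmcn2) made up the rest. The genes had different places among these clusters. Adamts5 was highest in cluster 0, at 708 CPM at 4 weeks and 1006 at 2 weeks. Mmp14 was highest in cluster 6, at 431 and 526. Mmp3 was highest in cluster 3, at 502 and 448, and low in cluster 0, at 58.5 and 13.

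Within clusters, the lower Adamts4 at 4 weeks was present in all 4, with log2 ratios of -1.41 in cluster 0, -3.13 in cluster 3, -3.85 in cluster 5 and -1.78 in cluster 6. The interval in cluster 0, from 15 and 8 UMIs, holds 0. For Mmp9, cluster 6, which held 80.0% of its class UMIs at 4 weeks and 85.9% at 2 weeks, had 10.7 and 4.03 CPM, a log2 ratio of 1.40 (0.79 to 2.00). That ratio rests on 1 cell with 27 of the 40 Mmp9 UMIs of cluster 6 at 4 weeks. Without the cell with the most in each library, cluster 6 had 3.51 and 3.58 CPM, a log2 ratio of -0.03 (-1.02 to 0.87). Adamts1 was also lower in all 4, with ratios of -0.87 to -0.33, and so was Adamts5, at -0.90 to -0.22. For Mmp14 the class value of -0.73 was not seen in every cluster: the ratio was -1.15 in cluster 5, -0.29 in cluster 6, -0.02 in cluster 0 and 0.23 in cluster 3. Mmp2, at -0.18 in the class, had -0.10 in cluster 0, 0.27 in cluster 3, 0.07 in cluster 5 and -0.31 in cluster 6. The direction of the inhibitors also differed. Timp2 had -0.10 in cluster 0, 0.04 in cluster 3, 0.28 in cluster 5 and -0.28 in cluster 6. Timp3 had -0.33 in cluster 0, -0.53 in cluster 3, 0.44 in cluster 5 and -0.02 in cluster 6. Past 2-fold, 1 of 8 genes was lower (Adamts4) and 1 higher (Mmp3) in cluster 0, where 3.01% and 2.54% of genes were. In cluster 3, 1 of 8 was lower (Adamts4) and 0 higher, where 3% and 2.5% of genes were. In cluster 5, 2 of 8 were lower (Adamts4 and Mmp14) and 1 higher (Mmp3), where 3.81% and 3.27% were. In cluster 6, 1 of 9 was lower (Adamts4) and 1 higher (Mmp9, which is not higher without that cell), where 4.52% and 1.63% were. With the 4 clusters weighted equally, the class ratios became -0.02 for Timp2, -0.11 for Timp3, -0.31 for Mmp14 and -2.54 for Adamts4.

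**Figure D4:**
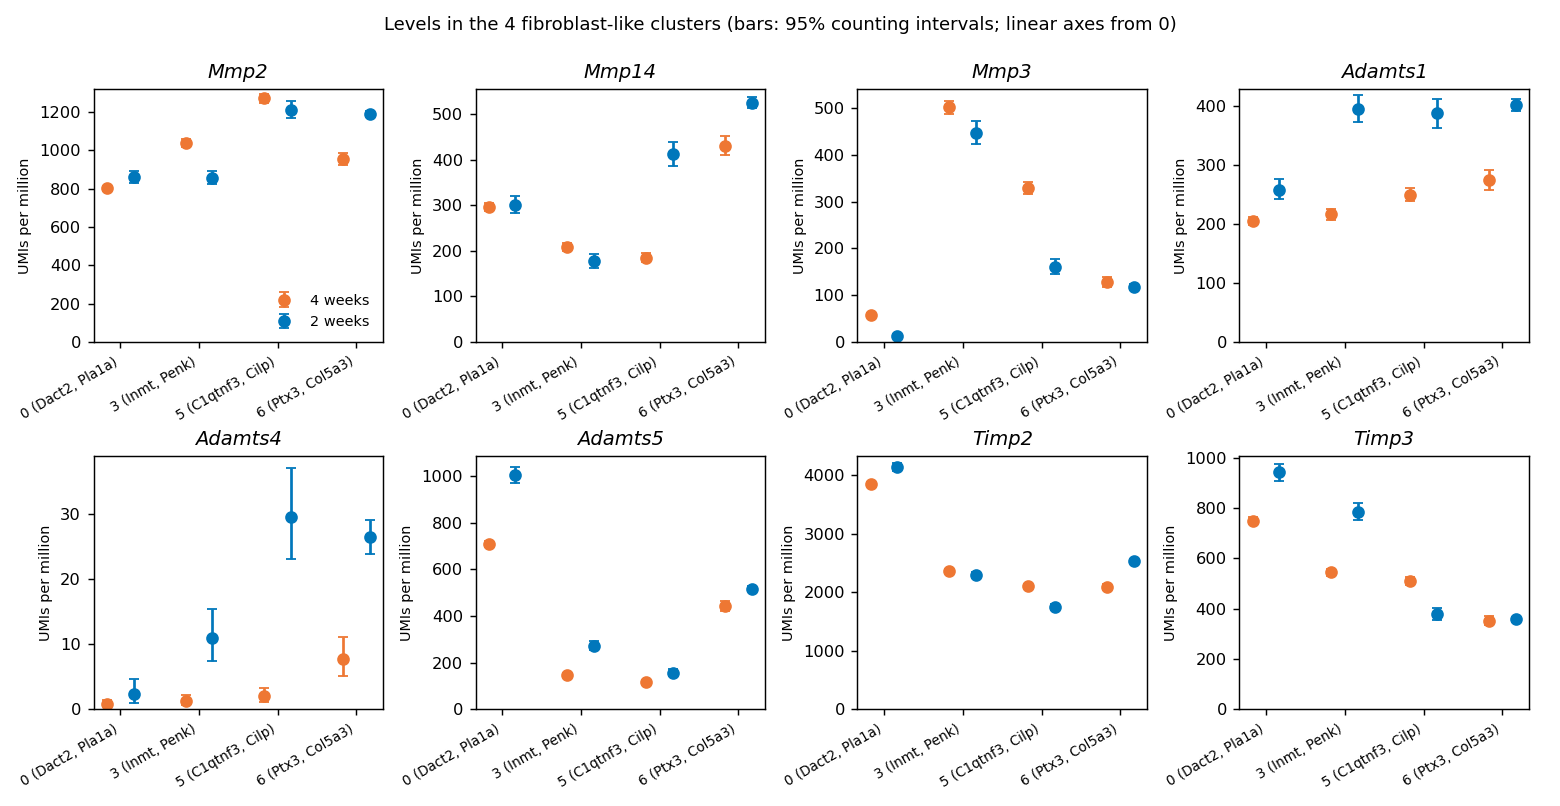
CPM (vertical axes, from 0) of 8 genes in the 4 fibroblast-like clusters, 4 weeks left of 2 weeks, with 95% counting intervals. Adamts4 is lower at 4 weeks in each cluster, Mmp3 is highest in cluster 3 and Adamts5 in cluster 0.

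Macrophage-like clusters divided the genes as well. Cluster 8 (led by Arg1, Saa3, Msr1, Cx3cr1 and F10) had the higher Mmp14, 264 CPM at 4 weeks and 462 at 2 weeks, against 43.8 and 144 in cluster 4 (Fcna, Folr2, Cd163, Ccl12 and C1qc). Timp2 ran the other way, with 344 and 234 in cluster 8 against 909 and 960 in cluster 4. Mmp9 was lower at 4 weeks in both, with log2 ratios of -2.37 in cluster 8 and -0.44 in cluster 4. Of the Mmp13 UMIs of the class, cluster 8 held all 68 at 4 weeks and 102 of 109 at 2 weeks. Past 2-fold, cluster 8 had 1 of 7 genes lower (Mmp9) and 2 higher (Mmp13 and Adamts1), where 4.02% and 3.98% of genes were. Cluster 4 had 2 of 8 lower (Mmp14 and Adamts1) and 2 higher (Mmp2 and Mmp3), where 6.88% and 3.19% were. Apart from Mmp14, Mmp9 and Mmp13, those genes had at most 30.1 CPM there. In cluster 4 the intervals of Adamts1 (3 and 62 UMIs) and Mmp3 (6 and 19 UMIs) hold 0. A single cell held 23 of those 62 Adamts1 UMIs. Mmp2 had 30.1 and 14.3 CPM in cluster 4, against 15.3 and 10.9 in thymocyte-like cells. Mmp3 had 5.48 and 2.19 there, against 3.87 and 1.39. Adamts1 in cluster 8 had 12 UMIs at 4 weeks, 8 of them in 1 cell, and its log2 ratio was -0.20 without the cell with the most in each library. Cluster 8 was 48.4% of the class at 4 weeks and 36.4% at 2 weeks.

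**Figure D5:**
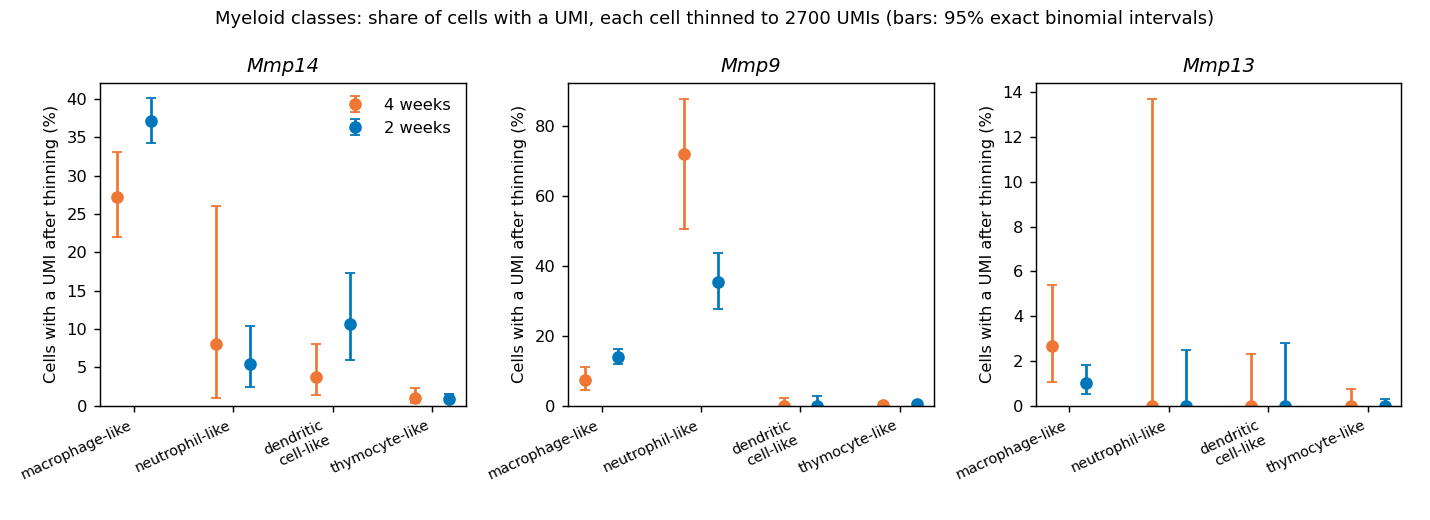
Percent of cells with a UMI after thinning each cell to 2700 UMIs (vertical axes, from 0) for Mmp14, Mmp9 and Mmp13, 4 weeks left of 2 weeks, with 95% exact binomial intervals. Mmp9 marks neutrophil-like cells (72.0% and 35.4%), and Mmp13 is seen in few macrophage-like cells (2.65% and 1.02%).

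Most fibroblast-like cells held UMIs of both proteases and inhibitors. After thinning, 97.7% of these cells at 4 weeks and 97.9% at 2 weeks held a UMI of at least 1 protease and at least 1 inhibitor. The share was 63.9% and 63.3% in smooth muscle-like cells, where the rest held mostly an inhibitor alone (36.1% and 33.9%). In macrophage-like cells 28.0% and 30.7% held both, and 15.2% and 19.0% held a protease without an inhibitor. In thymocyte-like cells 1.83% and 1.55% held both. Timp2 was found in nearly every fibroblast-like cell, so almost any such cell with a protease UMI would hold both. Shares expected from the rates of single genes were not computed, so whether proteases and inhibitors go together was not tested.

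Other genes of the same systems were counted in fibroblast-like cells. Of 16 other ADAMTS genes, 13 had at least 20 UMIs, and 7 of them were lower at 4 weeks by 2-fold, where 5.36% of all genes were. None of the 13 was higher, where 2.31% were, and the median log2 ratio was -1.06. Adamts15, also a proteoglycan-cutting enzyme, had 36.2 CPM at 4 weeks and 94.5 at 2 weeks. Adamts2, which trims procollagen, had 356 and 486. Within clusters, 2 of 12 of these genes were lower and 1 higher by 2-fold in cluster 0, 1 of 8 lower and 0 higher in cluster 3, 3 of 11 lower and 0 higher in cluster 5, and 1 of 13 lower and 1 higher in cluster 6. The shares over all genes in these clusters are those given above, and the medians were -0.79 to -0.21. Of 18 other MMPs, 8 were measured, none past 2-fold, with a median of 0.00. Timp1, another inhibitor, had 175 and 302 CPM, a log2 ratio of -0.79, but 1.21 within cluster 6. Of 12 immediate early genes, which respond to stress and tissue dissociation, 2 (Atf3 and Zfp36) were lower at 4 weeks by 2-fold and 0 were higher, against the same 5.36% and 2.31% of all genes, and the median was -0.58. Their part in the protease ratios was not tested.

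The pattern of each gene over 49 points (a cluster in a library, at least 30 cells) was compared with 7829 genes by Pearson's r of log2(CPM + 1), a description over points that share libraries and depth. Mmp2 was most like Serping1 and Nbl1 (0.98 each). Mmp14 was most like Plod3 and Dram1 (0.92 each), and Mmp9 most like Fpr1 (0.83) and Rnf149 (0.81). Mmp3 was nearest Gdf10 (0.91) and Sfrp2 (0.90), and Mmp13 nearest Atp6v0d2 (0.60) and Msr1 (0.58). Adamts1 was nearest Cyr61 (0.96) and Fermt2 (0.95), Adamts4 nearest Col15a1 and Col4a1 (0.88 each), and Adamts5 nearest Fstl1 and Lama4 (0.95 each). Timp2 was nearest Serpinb6a and Rnase4 (0.94 each), and Timp3 nearest Nfib (0.96) and Serpinh1 (0.95).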

How the data were processed

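Per the file headers, the deposited matrices hold whole UMI counts, one per gene and cell barcode, from Cell Ranger 4.0.0, and the submitters' processing notes name the mm10 build. The listed barcodes had at least 501 UMIs at 4 weeks and 500 at 2 weeks. The 4-week library holds 8565 barcodes and 83753250 UMIs, the 2-week library 5864 and 78773018. Of the gene IDs, 27645 (98.74%) matched GENCODE M21, the source of gene positions (mm10, 1-based).

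Kept cells had 300 or more genes, 500 or more UMIs and no more than 10% of UMIs from mitochondrial genes. The cells with the highest Scrublet scores were removed, in a number set by that of the barcodes (549 at 4 weeks, 255 at 2 weeks). The 2 libraries entered one clustering with no correction between them (Leiden, resolution 1, 2000 variable genes, 30 components, 15 neighbours, seed 1), leaving out 67 listed protease, inhibitor and related genes. Clusters were named from 30 marker lists: at least 3 markers and 50% of the list at 2-fold over the other clusters and in 10% of cells, a lead of 20 points, and no more markers of another class among the top 10 genes. Thymocyte clusters, which share T cell markers, and subtypes of a named type were not asked for the lead. Clusters that failed kept their number.

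UMIs were summed per class and library and scaled to CPM (per 1000000 UMIs of the class) with exact Poisson intervals. Ratios have exact conditional binomial intervals, given for classes of 50 or more cells at each time (20 for clusters) and genes with at least 20 UMIs. A ratio of 2-fold counted as past the threshold. Shares have exact Clopper-Pearson intervals. Shares of cells with a UMI were taken after thinning to 2700 UMIs, which leaves out 698 cells at 4 weeks and 538 at 2 weeks. Alternatives varied the genes, resolution and libraries clustered, the doublet and mitochondrial filters, the scaling, the weight of cells and clusters, the minimum of UMIs and single cells with many UMIs. The ratio step was tested on simulated data. All 10 genes are named. Other listed genes are named by a rule of at least 50 UMIs, 50 CPM and 0.1 of their highest class level. Python 3.11.15, scanpy 1.11.5, leidenalg 0.10.2, scikit-learn 1.9.0, scipy 1.17.1, numpy 2.4.6 and pandas 2.3.3 were used. The genes and lists were chosen with earlier results of these data known.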

Additional observations from a re-analysis of the deposited data

Results flagged for a closer look

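In 4 pairs of classes the same gene had log2 ratios on opposite sides of 0 that lay at least 1 apart, each with an interval that leaves out 0. Pairs that lay closer are not listed, and the differences themselves were not tested. Mmp2 had a log2 ratio of 0.68 in macrophage-like cells and -0.73 in smooth muscle-like cells, a difference of 1.41, and 0.48 in thymocyte-like cells, a difference of 1.21 from smooth muscle-like cells. Timp2 had 0.60 in NK cell-like cells and -0.61 in IL-17 type innate-like T cell-like cells, a difference of 1.21, and 0.42 in thymocyte-like cells, a difference of 1.02 from the IL-17 type cells. Mmp2 in macrophage-like cells had 24.3 CPM at 4 weeks and 15.2 at 2 weeks, near the 15.3 and 10.9 of thymocyte-like cells. Few smooth muscle-like cells carried most of its UMIs in that class. There, 5 cells held 48.3% of 29 Mmp2 UMIs at 4 weeks and 49.1% of 175 at 2 weeks, and 1 cell held 13.8% and 22.9%. Timp2 had 67.2 and 44.2 CPM in NK cell-like cells, 100.3 and 153 in the IL-17 type cells and 69.3 and 51.8 in thymocyte-like cells. In NK cell-like cells this was 0.97 (0.80 to 1.17) and 0.85 (0.63 to 1.13) times the thymocyte-like level. Thymocyte-like cells serve here as a guide to free RNA. The pairs that include them, or NK cell-like Timp2, therefore need not reflect expression by both classes.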

How the results depend on the processing

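No paired analysis was possible because there is 1 library per time. The count of genes lower by 2-fold in fibroblast-like cells was 1 when each library was clustered on its own, with no doublet removal, and with clusters weighted equally; the count higher was 1 with no minimum of UMIs. In macrophage-like cells the lower count was 3 and the higher 1 with separate clustering, and the higher was 5 with no doublet removal. The share of all genes past 2-fold was not computed under these alternatives, so these counts cannot be set beside it. Fibroblast-like cells stayed the largest source of 8 of the 10 genes at both times under every alternative run. In the main run they were the largest source of 81.4% of all genes at 4 weeks and 42.6% at 2 weeks. Of the ratios whose main interval leaves out 0, those that turned sign were Timp2 (-0.016) and Timp3 (-0.11) in fibroblast-like cells with clusters weighted equally; Mmp13 (-1.96, a bound from the floor of 3 counts) and Timp2 (0.023) in macrophage-like cells and Mmp2 (0.028) in smooth muscle-like cells with separate clustering; and, with no doublet removal, Timp2 in macrophage-like (0.00023) and IL-17 type cells (0.11) and Mmp3 in thymocyte-like cells (-1.22). The cause was not tested. Of the other ratios, 388 stayed within their counting interval and 57 moved, some of them with another sign where the main interval holds 0, and of shares 87 and 73. Joining clusters 11, 18 and 23 to the fibroblast-like class, chosen after seeing the data, left Adamts4 at -3.38 and moved Timp3 to 0.03. Leaving out the top cell of each cluster was also chosen after seeing the data. Equal cluster weights moved Adamts4 in fibroblast-like cells to -2.54.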

Other observations

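In macrophage-like cells, 5 of 18 other MMPs had at least 20 UMIs. Mmp12, the macrophage elastase, lies between Mmp13 and Mmp3 on chromosome 9 and had 566 CPM at 4 weeks and 104 at 2 weeks, a log2 ratio of 2.44. Mmp19 had 173 and 93.4. The run of MMP genes on chromosome 9 also holds Mmp27 and Mmp8. Fibroblast-like cells held 98.1% of Mmp27 UMIs at 4 weeks and 86.5% at 2 weeks. Neutrophil-like cells held 87.3% of Mmp8 UMIs at 4 weeks, while macrophage-like cells held 70.3% at 2 weeks. In smooth muscle-like cells, Vcan, which encodes versican, a proteoglycan cut by ADAMTS enzymes, had 326 CPM at 4 weeks and 191 at 2 weeks, and in fibroblast-like cells 156 and 293.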
